A study of Mus musculus with 8 samples.

Results

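The Slc25 genes encode carriers of the mitochondrial carrier family, and 42 of the 15853 genes in the deposited comparison were taken as members here. Members were all symbols made of Slc25a and a number, except Slc25a20, the carnitine-acylcarnitine carrier of fatty acid oxidation. The rule used names alone and no measured value, though it was set with earlier results of these data known. Genes with other kinds of names, such as Ucp2, fell outside it. Besides Slc25a20, GENCODE M21 holds 46 symbols of the chosen form, and Slc25a21, Slc25a41, Slc25a48 and Slc25a54 were not analysed here. All 42 members had an adjusted p-value, so none was lost to the filter on low means.

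The study measured polyadenylated RNA of mouse bone marrow-derived macrophages, grown for 7 days in medium conditioned by L929 fibroblasts and then given 250 uM of the saturated fatty acid palmitate with 25 mM glucose and 10 nM insulin for 24 h. The 4 control samples were Mirc11fl/fl Mirc22fl/fl Lyz2+/+ and the 4 knockout samples Mirc11fl/fl Mirc22fl/fl Lyz2Cre/Cre, so both groups carried loxP-flanked Mirc11 and Mirc22, the clusters of miR-23, miR-27 and miR-24. Cre stood in place of Lyz2, which is active in myeloid cells, so the knockout differed from the control in Cre and Lyz2 as well as in the clusters. Ages were not given in the sources used here, and nothing stated that samples came from separate mice, so the p-values describe only the variation among the samples at hand, part of which may be technical.

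No value per library could be used, because the 8 columns that hold them match no sample label. Each gene is therefore described by its overall mean of the authors' normalized counts and the log2 fold change they deposited, with the standard error (SE). A gene is called where the authors' adjusted p is under 0.05. No header names the genotype in the numerator. Its direction was taken from Lyz2, which Cre replaces in the knockout and which stands at -9.10 (SE 0.42) in the authors' deposited table. Positive values are thus read as higher in the knockout.

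Carriers of this family are small proteins of the inner mitochondrial membrane that exchange metabolites between the cytosol and the matrix. They bring in ADP, phosphate, amino acids, iron, glutathione and cofactors, and send out ATP and citrate. In macrophages the citrate carrier feeds fatty acid and sterol synthesis, and the adenine nucleotide and phosphate carriers supply the ATP synthase. A few members have left this site, such as Slc25a17 in the peroxisome and Slc25a46 in the outer mitochondrial membrane.

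Carrier transcripts moved in both directions and by small amounts. Of the 42 members, 4 were called higher in the knockout (Slc25a4, Slc25a36, Slc25a42 and Slc25a44) and 7 lower (Slc25a12, Slc25a15, Slc25a17, Slc25a22, Slc25a28, Slc25a32 and Slc25a38). The called share was 26.2%, beside 23% of all 14619 genes with an adjusted p, of which 11.3% were called higher and 11.7% lower. The members' share is thus near that of all genes. All of these calls fell on the 35 members with a mean of at least 100, of which 31.4% were called. Of 10942 tested genes with such a mean, 25.5% were called, 1116 higher and 1677 lower, so lower calls outnumbered higher ones there too. The median log2 fold change of the 42 members was -0.0017, with 21 above 0 and 21 below, beside a median of -0.0040 over all genes. All 11 called members changed by less than 1.5-fold, from 1.11-fold to 1.42-fold, as did 66.8% of all called genes.

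Scaling bears on this split. With all fold changes centred on the summed group means, 5 members were called higher and 5 lower, and the share of higher calls among all called genes was 70.9% in place of 49.1%. With centring on the median of genes with a mean of at least 100, members again split 5 and 5, and the share over all genes was 61.8%. In both cases Slc25a17 and Slc25a32 lost their calls and Slc25a5 gained one.

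**Figure D1:**
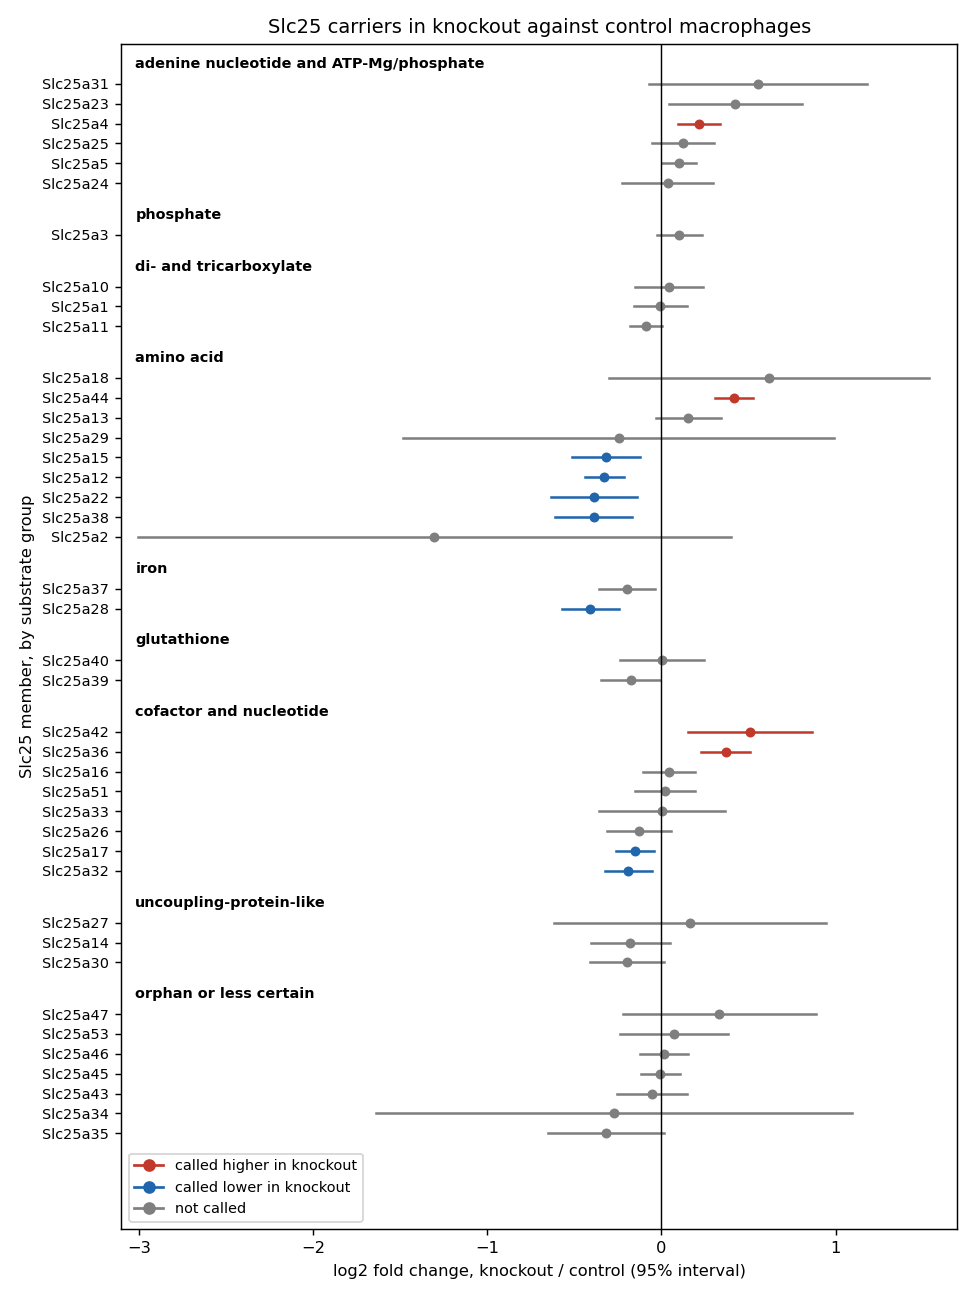
Log2 fold change (knockout over control, x axis) of 41 of the 42 Slc25 members (y axis, by substrate group), as the authors' value (point) with a 95% interval of 1.96 SE to each side (line). Of the 42, 4 were called higher (red) and 7 lower (blue), and 4 of the 7 lower calls lie in the amino acid group.

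Precision followed abundance. For the 35 members with a mean of at least 100, the 95% interval reached 1.06-fold to 1.30-fold to each side of the estimate, with a median of 1.13-fold. For the other 7 (Slc25a2, Slc25a18, Slc25a27, Slc25a29, Slc25a31, Slc25a34 and Slc25a47) it reached 1.47-fold to 3.26-fold, and none of them was called. Of the 31 members not called, 22 had an interval that lay within 1.5-fold of no change. A change beyond that size was not excluded for the other 9.

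**Figure D2:**
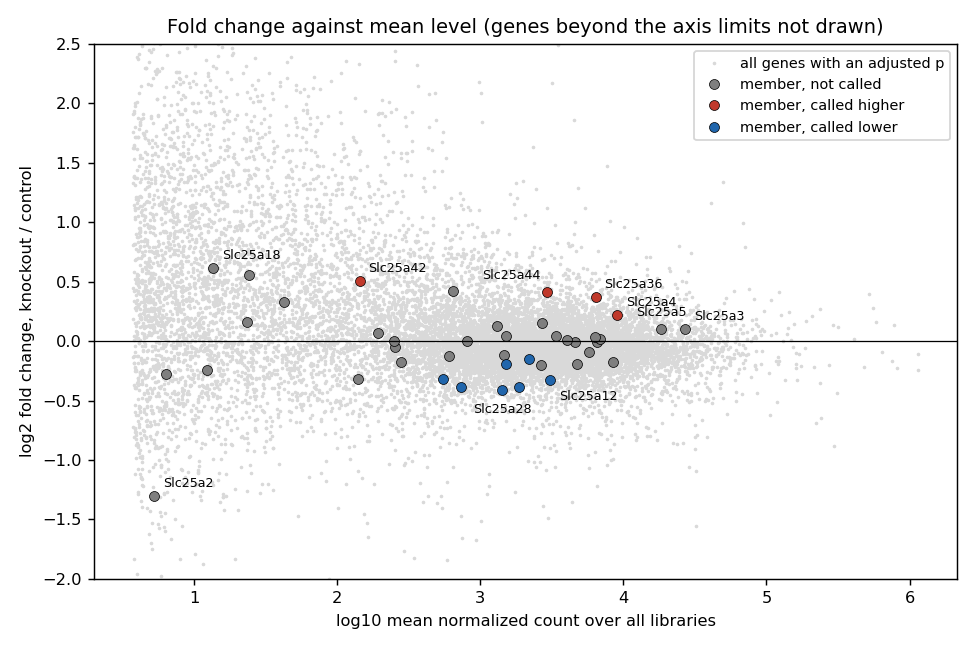
Log2 fold change (y axis) against log10 of the overall mean normalized count (x axis) for all genes with an adjusted p (grey dots) and the 42 Slc25 members (large points, by call). Called members sit within 0.51 of 0 on the log2 scale, and the members farthest from 0, Slc25a2 and Slc25a18, have low means and no call; 65 genes lie beyond the axis limits of -2 and 2.5.

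The 2 most abundant members carry the substrates of ATP synthesis. Per kilobase of the principal transcript, Slc25a3 had a mean normalized count of 16798 and Slc25a5 of 14892, together 46.5% of the sum over the 42 members, although reads of Slc25a5 can be shared with its pseudogenes. Slc25a39 (5020 per kilobase), Slc25a4 (4702), Slc25a11 (3354) and Slc25a1 (2741) came next. Whether neighbours in this order differ was not tested, since no spread over libraries was available. At the other end, Slc25a34 had 2.39 and Slc25a2 3.85 per kilobase.

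The 6 carriers of adenine nucleotides and ATP-Mg were all above 0, beside 7213 of 14619 genes. Of these carriers 1 passed the test (16.7%, beside 23% of all genes) and 5 were not called. Slc25a4 encodes the ADP/ATP carrier ANT1, known from heart and skeletal muscle, and was higher in the knockout at 0.22 (SE 0.06, adjusted p = 0.00345) per the authors' deposited table, a 1.16-fold difference. It lies at chromosome 8, 46206797 to 46211284 (mm10). Its mean, worked out from the authors' overall mean and fold change for groups of equal size, was 8369 in the control and 9733 in the knockout. Slc25a5, which encodes ANT2, the form of dividing cells, was at 0.10 (SE 0.05, adjusted p = 0.121) per the authors' deposited table and was called only under the centred scalings. Slc25a31, the germ-cell form, was at 0.55 (SE 0.32, adjusted p = 0.203) per the authors' deposited table, on a mean of 24.1.

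The calcium-regulated ATP-Mg/phosphate carriers Slc25a23, Slc25a24 and Slc25a25 adjust the adenine nucleotide content of the matrix. Slc25a23 was at 0.42 (SE 0.19, adjusted p = 0.0986) per the authors' deposited table, a size like that of the called members but with a 95% interval from 1.03-fold to 1.75-fold. Slc25a25 was at 0.13 (SE 0.09, adjusted p = 0.325) and Slc25a24 at 0.04 (SE 0.13, adjusted p = 0.883) per the authors' deposited table. Slc25a3, the phosphate carrier, was at 0.10 (SE 0.07, adjusted p = 0.264) per the authors' deposited table.

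Carriers of di- and tricarboxylates gave no call, with 0 of 3 past the threshold, beside 23% of all genes. Slc25a1, which exports citrate, was at -0.01 (SE 0.08, adjusted p = 0.970) per the authors' deposited table, and its 95% interval ran from 0.895-fold to 1.11-fold. Slc25a10, the dicarboxylate carrier, was at 0.04 (SE 0.10, adjusted p = 0.807) per the authors' deposited table. Slc25a11, the oxoglutarate-malate carrier, was at -0.09 (SE 0.05, adjusted p = 0.152) per the authors' deposited table. The intervals of all 3 lay within 1.5-fold of no change.

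Amino acid carriers held 5 of the 11 calls, 1 higher and 4 lower among 9 members, with a median log2 fold change of -0.32. The called share was 55.6% of these 9, beside 23% of all genes, and no test of the group against other genes was made. Slc25a44, which imports branched-chain amino acids into the matrix, had the smallest adjusted p of all members. It was at 0.42 (SE 0.06, adjusted p = 5.75e-12) per the authors' deposited table, a 1.33-fold rise with a 95% interval from 1.24-fold to 1.44-fold. Its derived means were 2520 in the control and 3364 in the knockout. The gene lies at chromosome 3, 88410498 to 88425139, on the minus strand (mm10).

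Of the 4 aspartate and glutamate carriers, Slc25a12 and Slc25a22 were called lower. Slc25a12, which encodes aralar, the aspartate-glutamate carrier of the malate-aspartate shuttle, fell by 0.33 on the log2 scale (SE 0.06, adjusted p = 3.30e-07) per the authors' deposited table, with derived means of 3439 in the control and 2741 in the knockout. It lies at chromosome 2, 71271063 to 71367749. Slc25a13, which encodes citrin and has the same exchange, was at 0.15 (SE 0.09, adjusted p = 0.236) per the authors' deposited table. The 95% interval of Slc25a12, from -0.44 to -0.22, did not overlap that of Slc25a13, from -0.03 to 0.34. The difference between these fold changes was not tested, since both come from the same libraries. Slc25a22, a glutamate carrier, was lower at -0.39 (SE 0.13, adjusted p = 0.0142) per the authors' deposited table, while its paralogue Slc25a18 was at 0.62 (SE 0.47, adjusted p = 0.354) on a mean of 13.5.

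The glycine and ornithine carriers were lower as well. Slc25a38 brings glycine into the matrix for the first step of haem synthesis and was at -0.39 (SE 0.11, adjusted p = 0.00505) per the authors' deposited table. Slc25a15, the ornithine-citrulline carrier of the urea cycle, was at -0.32 (SE 0.10, adjusted p = 0.0108) per the authors' deposited table. Its paralogue Slc25a2 was at -1.30 (SE 0.87, adjusted p = 0.283) and Slc25a29, a carrier of basic amino acids, at -0.25 (SE 0.63, adjusted p = 0.825) per the authors' deposited table. The means of these 2 were 5.28 and 12.4, too low for a fold change of this size to be resolved.

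**Figure D3:**
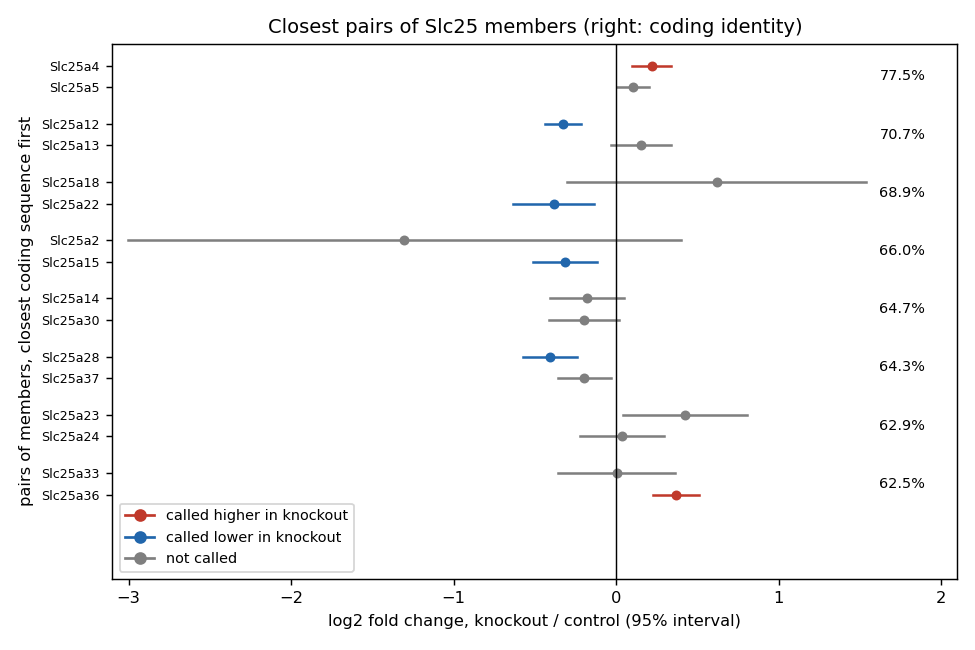
Log2 fold change with its 95% interval (x axis) for the 8 pairs of Slc25 members (y axis) with the closest coding sequences, with the identical share of the longer coding sequence on the right. Slc25a12 and Slc25a13 share 70.7% and lie on opposite sides of 0, while Slc25a4 and Slc25a5 share 77.5% and both lie above it.

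Both iron carriers were below 0, beside 7406 of 14619 genes. Of these 2 carriers 1 was called (50%, beside 23% of all genes, with no test of the group). Slc25a28, which encodes mitoferrin 2, the widely expressed importer of iron for haem and iron-sulphur clusters, was lower at -0.41 (SE 0.08, adjusted p = 2.96e-05) per the authors' deposited table. Its derived means were 1607 in the control and 1211 in the knockout, a fold of 0.754. It lies at chromosome 19, 43663801 to 43674881. Slc25a37, which encodes mitoferrin 1, known from developing red cells, was at -0.20 (SE 0.08, adjusted p = 0.0679) per the authors' deposited table and was the uncalled member nearest to the threshold. On the other side, the called member nearest to it was Slc25a17, at an adjusted p of 0.0295. Slc25a37 shares 9.07% of its 31-nucleotide words with transcripts of other genes. Of these 15 other genes the first is Gm16867 (8.49%), at -6.58 (SE 0.27) per the authors' deposited table. Gm31748 and Gm37847 share almost as much (8.47% each), so reads of that stretch may not be separated. No erythroid marker of the list (0 of 4) was in the comparison.

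Neither of the 2 glutathione carriers was called, beside 23% of all genes. Slc25a39, the third most abundant member per kilobase, was at -0.18 (SE 0.09, adjusted p = 0.129) per the authors' deposited table. Slc25a40 was at 0.0017 (SE 0.12, adjusted p = 0.994) per the authors' deposited table.

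Cofactor and nucleotide carriers split, with 2 of 9 called higher and 2 lower (44.4% called, beside 23% of all genes, with no test of the group). Slc25a36, which exchanges pyrimidine nucleotides needed for mitochondrial DNA and RNA, was higher at 0.37 (SE 0.07, adjusted p = 8.71e-06) per the authors' deposited table, with derived means of 5580 in the control and 7206 in the knockout. It lies at chromosome 9, 97074961 to 97111157. Its closest paralogue Slc25a33, also a pyrimidine nucleotide carrier, was at 0.0035 (SE 0.18, adjusted p = 0.992) per the authors' deposited table. Slc25a42, which brings coenzyme A into the matrix, was higher at 0.51 (SE 0.18, adjusted p = 0.0262) per the authors' deposited table, the largest rise among called members, on a mean of 143. Slc25a16, also linked to coenzyme A, was at 0.04 (SE 0.08, adjusted p = 0.736) per the authors' deposited table.

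Of the lower pair in this group, Slc25a32 carries folate and FAD and was at -0.19 (SE 0.07, adjusted p = 0.0280) per the authors' deposited table. Slc25a17, the peroxisomal carrier of coenzyme A and related cofactors, was at -0.15 (SE 0.05, adjusted p = 0.0295) per the authors' deposited table. These were the smallest of the called falls, and both calls ended under either centring. The NAD carrier Slc25a51 was at 0.02 (SE 0.09, adjusted p = 0.894) per the authors' deposited table. The S-adenosylmethionine carrier Slc25a26 was at -0.13 (SE 0.09, adjusted p = 0.336) per the authors' deposited table.

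The remaining 10 members gave no call, beside a called share of 23% of all genes. The uncoupling-protein-like Slc25a14, Slc25a27 and Slc25a30 ran from -0.20 to 0.16 on the log2 scale. The 7 orphan or less certain members ran from -0.32 (Slc25a35) to 0.33 (Slc25a47). Among these, the abundant Slc25a45 was at -0.01 (SE 0.06, adjusted p = 0.962) and Slc25a46, which acts in outer membrane dynamics, at 0.01 (SE 0.07, adjusted p = 0.920) per the authors' deposited table.

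Matches to the seeds of the deleted miRNAs were counted in the 3' UTRs of the members, because these miRNAs bind through bases 2 to 8. Their mature sequences from RefSeq (GRCm38.p6) are shown to mark the seed, in capitals. The miR-27 forms of both clusters have the same seed, and both clusters encode miR-24-3p.
mmu-miR-23a-3p: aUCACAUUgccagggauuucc
mmu-miR-27a-3p: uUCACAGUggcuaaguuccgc
mmu-miR-27b-3p: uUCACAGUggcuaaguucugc
mmu-miR-24-3p: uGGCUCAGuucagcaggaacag

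The matches searched on the transcript strand were AATGTGA and ATGTGAA for miR-23, ACTGTGA and CTGTGAA for miR-27, and CTGAGCC and TGAGCCA for miR-24, with 8 nucleotides where both of a kind coincide. The second form given for each miRNA leaves out base 8 and ends in an A instead, and both forms were counted alike. The miR-23 and miR-27 matches share the letters TGTGA, but no stretch can count for both. Of 41 members with an annotated 3' UTR, 23 (56.1%) held a match for any of the 3 miRNAs, beside 53.4% of 13087 genes. A match is a description of the sequence and shows no binding.

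Slc25a44 had the most matches of all members. Its longest 3' UTR of 2395 nucleotides, in exon 3, holds 9, of which 6 are for miR-24 and 3 for miR-27. Of all 13087 genes, 45 (0.344%) held at least as many. Of the 1884 genes with a 3' UTR within 20% of that length, 4 (0.212%) did, with a median of 1 match. These counts include Slc25a44 itself. Its 9 matches are shown in order along the UTR, with the match in capitals (mm10, minus strand), since this is the called member with the smallest adjusted p.
miR-27, chr3:88412618-88412640: aactgaccCTGTGAAtaccacca
miR-27, chr3:88412138-88412160: ctgaacatCTGTGAAtgagccaa
miR-24, chr3:88412131-88412153: tctgtgaaTGAGCCAactcaccc
miR-27, chr3:88412069-88412091: agtggaaaACTGTGAcacagatc
miR-24, chr3:88411841-88411864: caggccagCTGAGCCAagccctgg
miR-24, chr3:88411810-88411832: cggaggttCTGAGCCcgaggcag
miR-24, chr3:88411537-88411559: tgcctctaCTGAGCCtgtgttgg
miR-24, chr3:88411305-88411327: gtttccttCTGAGCCctctacta
miR-24, chr3:88410721-88410743: ggtgaagaTGAGCCAgtgggcgg

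Slc25a36, also called higher, had 5 matches in a 3' UTR of 4085 nucleotides, 3 for miR-27 and 2 for miR-23. Of the 1127 genes with a 3' UTR of similar length, Slc25a36 included, 13.6% held at least as many, with a median of 2 matches. The other members called higher, Slc25a4 and Slc25a42, held none. Slc25a25 held 4 matches and was at 0.13 (SE 0.09, adjusted p = 0.325) per the authors' deposited table. For Slc25a36, the miR-23 match of the first kind and the miR-27 match nearest the end of the UTR are shown.
miR-23, chr9:97078295-97078317: tgattcatAATGTGAttatcaca
miR-27, chr9:97075003-97075025: ccttgcagACTGTGAcacttgac

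Members called lower held matches too, all for miR-24. Slc25a15 held 2, and Slc25a12 and Slc25a22 held 1 each, so a match did not go with a rise in these 3. Over the 23 members with any match, 2 were called higher and 3 lower, with a median log2 fold change of 0.01. Over the 18 without one, 2 were called higher and 4 lower, with a median of -0.05. Among all genes with a match, 14.8% were called higher and 10.6% lower. Among all genes without one, these shares were 8.95% and 14.9%. The 2 classes also differed in length, with a median 3' UTR of 1934 nucleotides for all genes with a match and 566 for those without. For members these medians were 1714 and 872. Length was not accounted for in these shares. The 2 matches of Slc25a15 are shown for comparison with those of Slc25a44.
miR-24, chr8:22377370-22377392: aaaagctgCTGAGCCtgtgcact
miR-24, chr8:22376942-22376964: aggccactCTGAGCCcactgtgt

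**Figure D4:**
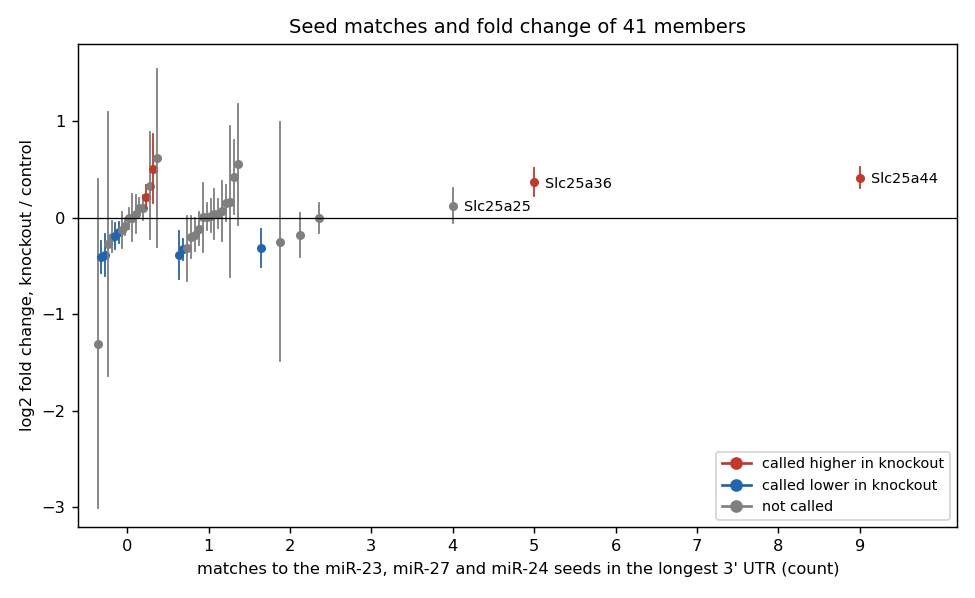
Log2 fold change with its 95% interval (y axis) against the number of seed matches for miR-23, miR-27 and miR-24 in the longest 3' UTR (x axis, count; points of one count are spread sideways) for 41 members. Slc25a44 with 9 matches and Slc25a36 with 5 were both called higher, and Slc25a25 with 4 was not called. Members with 0 to 2 matches lie on both sides of 0.

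A further list held other transporters of the inner mitochondrial membrane. Of 27 genes in a list of pyruvate, calcium, serine and uncoupling carriers and channels, 2 were called higher and 5 lower, with a median of -0.10. The called share of 25.9% is near the 23% of all genes. The serine carrier gene Sfxn1 was at 0.38 (SE 0.09) and its relative Sfxn3 at -0.44 (SE 0.07) per the authors' deposited table. Mcub, an inhibitory subunit of the calcium uniporter, was at -0.67 (SE 0.12) and Ucp2 at -0.23 (SE 0.09, adjusted p = 0.0382) per the authors' deposited table. The pyruvate carrier genes Mpc1 and Mpc2 were at 0.05 (SE 0.06) and -0.14 (SE 0.12) per the authors' deposited table, neither called. Slc25a20, left out of the members, was at -0.26 (SE 0.13, adjusted p = 0.123) per the authors' deposited table.

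The list of the machinery that inserts carriers into the inner membrane centred near 0. Of its 18 genes, 2 were called higher and 0 lower (both by the authors' DESeq2 test), with a median of 0.0020. The called share was 11.1%, beside 23% of all genes. Tomm70a, the outer membrane receptor for carrier precursors, was at 0.28 (SE 0.04, adjusted p = 1.95e-11) per the authors' deposited table. Hsp90aa1, a chaperone that delivers them, was at 0.41 (SE 0.07, adjusted p = 6.62e-07) per the authors' deposited table. Timm22, the channel of the insertion complex, was at -0.06 (SE 0.09, adjusted p = 0.689) per the authors' deposited table.

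**Figure D5:**
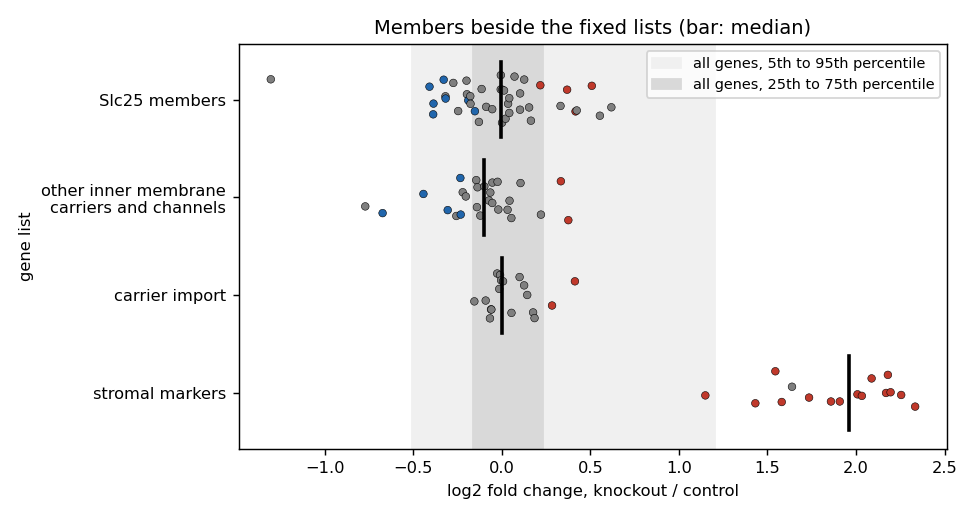
Log2 fold change (x axis) of single genes (points, red called higher, blue called lower, grey not called) in 4 lists (y axis), with the median of each list as a black bar and the spread of all genes as grey bands. The Slc25 members centre on 0 with a median of -0.0017, and the stromal markers all lie above 1, with a median of 1.96.

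Stromal markers moved with the same comparison. Of 16 stromal and fibroblast markers, 15 were called higher and 0 lower (93.8% called, beside 23% of all genes), with a median of 1.96. Their summed derived mean was 3247 in the control and 12910 in the knockout. Lum was not analysed here, and none of these 16 had a mean of 0. Of the other cell types, 2 adipocyte markers, 1 neutrophil, 1 dendritic and 1 lymphocyte marker had an adjusted p in the authors' DESeq2 table, and 0 were called or had an unadjusted p under 0.05. The erythroid markers were not analysed here. Of 8 macrophage markers 1 was called higher (Adgre1) and 5 lower (Cd68, Csf1r, Fcgr1, Lyz2 and Spi1). The called share was 75%, beside 23% of all genes. Lyz2 is counted in it, although Cre replaces this gene and its fall set the direction of the comparison. Its call was thus fixed in advance and says nothing about macrophage content. Csf1r, the M-CSF receptor gene, had a mean normalized count of 163291. It was at -0.33 (SE 0.09, adjusted p = 0.00198) per the authors' deposited table. In bulk RNA, fewer cells of a type and less RNA per cell cannot be told apart. The part of stromal RNA in any carrier's change was not tested.

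Reads of some members can come from near-identical copies. Slc25a5 shares 67.1% of the 31-nucleotide words of its principal transcript with 13 other annotated genes, among them Gm5560, Gm5529 and the pseudogene Slc25a5-ps, so its value is uncertain. Slc25a36 shares 13.6% with Gm13217 alone. Uncalled members share words as well, such as Slc25a33 with Gm13068 (13.5%) and Slc25a40 with Gm5066 (14%). Slc25a44 shares 1.35%, with Gm26852. Slc25a42 and Slc25a12 share 5.84% and 3.73%, and Slc25a32 shares 1.07%, in each case with many genes. For Slc25a12 most of this is shared with Adpgk (2.95%). The other called members, Slc25a4, Slc25a15, Slc25a17, Slc25a22, Slc25a28 and Slc25a38, share none.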

How the data were processed

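RNA-seq of 4 control and 4 knockout samples was analysed from the authors' comparison of 15853 genes. The submitters' processing notes name mm10, FastQC, cutadapt, Salmon and DESeq2, with versions and settings not given in the sources used here. Per the file headers, the deposited signal is the authors' mean normalized count, and the log2 fold change and its SE are the authors'. The score is the authors' Wald statistic, equal to the deposited fold change over its SE to within 1.1e-07. Each p-value was deposited by the authors with its DESeq2 adjustment, from which a Benjamini-Hochberg adjustment computed here differed by at most 5.7e-09. Another 8 columns of normalized values per library match no sample label and were not used, so no depth per library, limma fit, left-out library or replicate block could be had.

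Intervals of 95% are the fold change with 1.96 SE to each side. A group mean was derived from the overall mean and the fold change, for groups of equal size. Levels were divided by the length of the principal transcript in GENCODE M21, made for GRCm38 (mm10), where all 42 members matched by symbol. Seed matches were searched in the longest 3' UTR, and shared words are 31 nucleotides long, on either strand. Python 3.11.15 and numpy 2.4.6 were used. The adjustment and the search were tested on simulated data.

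Members and lists were chosen with earlier results of these data known. Every called member is given with values, as are the 5 uncalled members with the largest means and uncalled carriers of the same substrate. Others named were chosen after their values were seen, as were the counts of matches per gene and of shared words. Protein sequences were not used here. The values of 1 uncalled member are not reported here, and it is counted in the totals.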

Additional observations from a re-analysis of the deposited data

How the results depend on the processing

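Without a filter on the mean and at a mean of at least 50, the member calls stayed at 4 higher and 7 lower, with 7 members not tested at the latter. Centring on the summed group means moved all fold changes by 0.06 and that on the median by 0.04, and left 960 and 1230 of the 1712 genes called lower. Under the former, adjusted p was 0.173 for Slc25a32, 0.247 for Slc25a17 and 0.00733 for Slc25a5, and under the latter 0.0876, 0.115 and 0.0306. At an adjusted p under 0.01, 1047 genes were higher and 1009 lower, with 3 members higher (Slc25a4, Slc25a36 and Slc25a44) and 3 lower (Slc25a12, Slc25a28 and Slc25a38). With 8-nucleotide matches alone, 1 member held a miR-23 match, 4 a miR-24 match, 0 a miR-27 match and 5 any of them, in place of 7, 11, 10 and 23, since fewer sites qualify. With every annotated 3' UTR, 11 held a miR-27 match and the other counts stayed. No paired analysis was possible because no column of normalized values could be tied to a sample label. The limma fit, other pseudocounts and left-out libraries were not run for the same reason.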

Other observations

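Gm16867, a predicted gene, lies 78.4 kb from Slc25a37, at chromosome 14, 69363504 to 69503362 on the minus strand (mm10), and Slc25a37 at 69241848 to 69285112 on the same strand. In the authors' deposited table Gm16867 was at -6.58 (SE 0.27, adjusted p = 7.61e-125) and Slc25a37 at -0.20 (SE 0.08, adjusted p = 0.0679). Of the words of the Slc25a37 transcript, 8.49% also occur in Gm16867, and 8.47% in each of Gm31748 and Gm37847. How much of the Slc25a37 value rests on these shared words was not tested.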
